A study of Homo sapiens with 12 samples.

Results

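The lysosomal enzymes and membrane proteins of MIA PaCa-2 cells were followed across 2 glutamine levels, without and with gemcitabine. The group was defined by a list of 38 gene symbols, grouped by function and chosen with earlier results of these data known, and 37 of them were found among the 15090 genes of the deposited table. They comprised 7 proteases, 9 glycosidases, 5 sulfatases, 5 lipid-degrading enzymes or their helpers, 9 membrane proteins and 2 regulators. The sialidase gene NEU1 was not analysed here. All 37 passed the filter on low values (at least 1 RPM, reads per 1000000, in at least 3 of 12 libraries), as did 12789 genes in all.

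MIA PaCa-2 is an established, wild-type labelled human pancreatic cancer cell line, and its total RNA was sequenced in 12 libraries after 48 h of treatment. All 4 groups were kept in RPMI 1640 medium made without glutamine, to which L-glutamine was added back. Cells received 2 mM L-glutamine without drug, 2 mM with 0.5 µM gemcitabine, 40 mM without drug, or 40 mM with 0.5 µM gemcitabine, a deoxycytidine analogue that blocks DNA synthesis, with 3 libraries per group that the series describes as biological triplicates. The series title places the study in the question of how a high glutamine dose bears on pancreatic cancer chemosensitivity.

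Lysosomes are acidic organelles in which hydrolases break down proteins, glycans, lipids and nucleic acids delivered by endocytosis and autophagy. Most of the soluble enzymes are made in the endoplasmic reticulum and carried to the lysosome by receptors that recognise mannose 6-phosphate, while heavily glycosylated proteins such as LAMP1 and LAMP2 line its membrane. Many of these genes carry a short palindromic element in their promoters that TFEB and related transcription factors can bind, and in pancreatic cancer cells the lysosome is known as a site where protein taken up from outside is turned into amino acids.

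The promoter stretches of the members in which this element was found are shown. RefSeq windows of 300 bases (250 before and 50 after a start site, GRCh38.p14) were at hand for 27 of the 37 members. The 10 members without a window, UNC93B1 and ASAH1 among them, were not searched for any motif. The element TCACGTGA, searched on both strands, which reads the same on both strands and contains the shorter motif CACGTG, was found in the windows of 6 members, or 22.2%. It was present in 2.28% of the 9858 tested genes with a window and in 0.98% of all 35116 windows. The stretches lie at chr13:113297170-113297244 (LAMP1, plus strand), chr16:28492069-28492116 (CLN3, minus), chr16:88857075-88857162 (GALNS, minus), chr17:80101464-80101580 (GAA, plus), chr19:7522542-7522623 (MCOLN1, plus) and chr20:45891269-45891334 (CTSA, plus). They are written 5′ to 3′ on the strand of the gene, begin 40 bases before the first element and have each element in capitals.
LAMP1: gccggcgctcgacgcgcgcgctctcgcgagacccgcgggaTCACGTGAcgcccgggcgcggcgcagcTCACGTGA
CLN3: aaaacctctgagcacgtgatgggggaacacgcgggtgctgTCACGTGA
GALNS: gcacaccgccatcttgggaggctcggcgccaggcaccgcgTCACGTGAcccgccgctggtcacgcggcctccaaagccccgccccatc
GAA: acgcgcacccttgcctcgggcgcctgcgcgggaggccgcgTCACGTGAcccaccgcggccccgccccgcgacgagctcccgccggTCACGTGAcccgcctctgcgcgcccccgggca
MCOLN1: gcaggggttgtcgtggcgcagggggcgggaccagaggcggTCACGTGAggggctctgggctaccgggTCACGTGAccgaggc
CTSA: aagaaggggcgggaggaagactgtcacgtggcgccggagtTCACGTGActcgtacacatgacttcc

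The shorter motif CACGTG was in the windows of 9 of 27 members (33.3%), against 12.7% of tested genes with a window and 7.26% of all windows. A pair of GAAA repeats with any 2 bases between them, as in interferon response elements and searched on both strands, was in none of the 27 windows, against 3.69% of tested genes and 3.57% of windows. The 250 bases before the start site of CD68, the member with the largest drug response, are given with no capitals because none of the 3 motifs is in them (chr17:7579388-7579637, plus strand).
CD68: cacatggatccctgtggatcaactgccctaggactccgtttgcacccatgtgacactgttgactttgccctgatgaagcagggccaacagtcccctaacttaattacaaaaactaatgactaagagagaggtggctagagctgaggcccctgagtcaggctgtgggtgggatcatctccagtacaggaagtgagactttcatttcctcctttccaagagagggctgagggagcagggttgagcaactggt

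Libraries held between 21723094 and 32811746 reads in listed genes. The sums of RPM values, relative to 1000000, lay between 0.9717 and 0.9744 where 40 mM glutamine and drug were combined and between 0.9981 and 1.021 elsewhere, so the deposited values carry a scaling between libraries. The keratins KRT8, KRT18 and KRT19 summed to 3030 to 3180 RPM at 2 mM, 4130 to 4190 at 2 mM with drug, 2390 to 2490 at 40 mM and 2910 to 2980 at 40 mM with drug. The other epithelial markers EPCAM, CDH1 and KRT7 were not among the listed genes. Of 12 macrophage and leukocyte markers, only CD14 and LYZ were listed, and their sum lay between 0.408 and 1.17 RPM with overlapping ranges in all 4 groups. The fibroblast marker list was represented by COL1A1 and COL1A2. COL1A1, at most 1.61 RPM, was called higher with drug at 2 mM alone (0.44 ± 0.174, limma adjusted p = 0.0485). COL1A2, which the cells expressed at 582.1 to 897 RPM, was higher with glutamine (0.22 ± 0.03 without and 0.16 ± 0.03 with drug). It was lower with drug (−0.32 ± 0.03 and −0.39 ± 0.03). The part of these shifts in the results was not tested. In bulk libraries, fewer cells that express a gene and less RNA per cell cannot be told apart.

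Levels of the members were compared per kb of exon (GENCODE 29 exon lengths) and spanned a wide range. CTSD, the aspartic protease cathepsin D, averaged 428 RPM per kb over the 12 libraries. PSAP, the precursor of the saposins that help enzymes reach their lipids, followed at 374 RPM per kb, then LIPA, the acid lipase of cholesteryl esters and triglycerides, at 185, and GRN, the progranulin precursor, at 159. At the other end were CTSC at 2.73 RPM per kb, ARSB at 1.10 and TFEB at 0.632. TFEB rested on 52 to 99 reads per library, and its standard error of 0.15 on the log2 scale was the largest among the members, whose median standard error was 0.044. The summed level of all 37 members was 5898 ± 23.7 RPM at 2 mM without drug, 5837 ± 81 at 2 mM with drug, 6338 ± 109 at 40 mM without drug and 6176 ± 105 at 40 mM with drug (SD, n = 3). Every library at 40 mM (6091 to 6447 RPM) lay above every library at 2 mM (5757 to 5919 RPM).

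**Figure D1:**
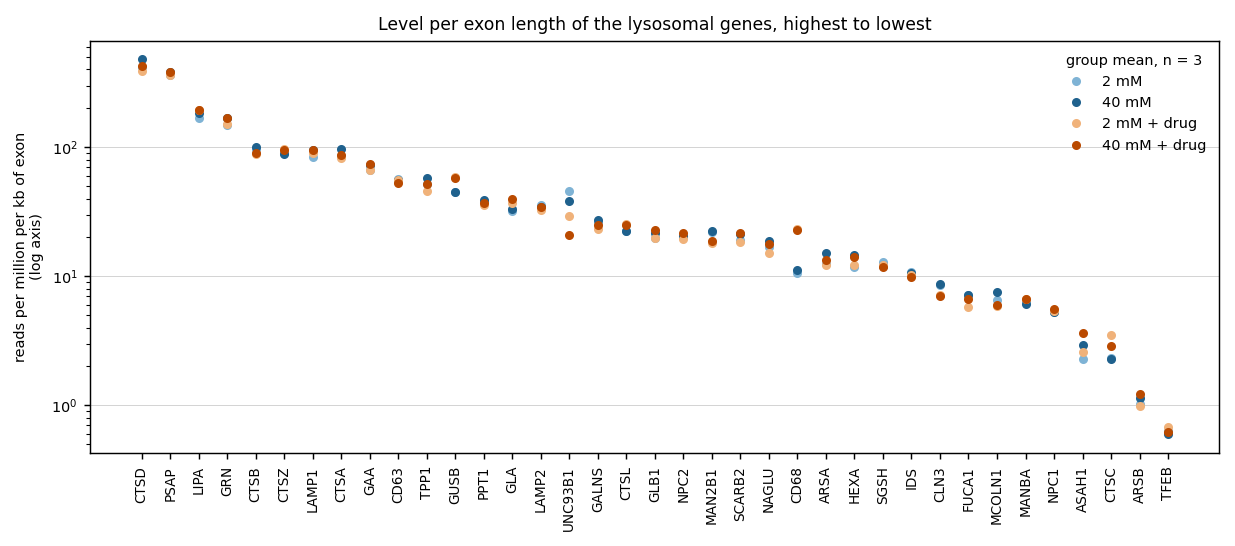
Mean level of each lysosomal gene in RPM per kb of exon (log axis) in the 4 groups, 3 libraries each, ordered from CTSD (428 over all libraries) to TFEB (0.632). Groups lie close together for most genes, and the widest gaps are those of UNC93B1 and CD68.

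At 40 mM glutamine more members were higher than lower. Without drug 11 of 37 rose (29.7%) and 1 fell (2.7%), and among drug-treated cells 13 rose (35.1%) and 2 fell (5.41%). Over all tested genes, 8.41% were called higher and 9.12% lower without drug, and 8.62% higher and 13.0% lower with drug (limma, Benjamini-Hochberg adjusted p under 0.05). The changes were small. Among called members the median size was 0.19 without drug and 0.20 with drug on the log2 scale, and no called change reached 0.5. Sizes of called changes over all genes were not computed. The median log2 change over all 37 was 0.06 without and 0.07 with drug, beside 0.002 and −0.002 over all genes tested. The p-values weigh a difference of group means against the spread between libraries within groups, pooled over the 4 groups.

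The comparisons of glutamine without and with drug share no library. Both had ASAH1, CTSA, CTSD, GAA, GRN, HEXA, SCARB2 and TPP1 among the rises, which is 72.7% of the 11 and 61.5% of the 13. UNC93B1 fell in both. ARSA, LAMP1 and LIPA were called without drug alone, and ARSB, GLB1, NAGLU, NPC2 and PSAP with drug alone, as was the fall of CTSC. No member was called in opposite directions. The share of calls found in both comparisons was not computed over all genes. With each library set to its own total in place of the authors' scaling, 15 members were higher without drug and 19 with drug, beside 11.3% and 15.8% of all genes, and 1 was lower in each, beside 7.17% and 7.36%. Quantile normalization gave 16 rises and 2 falls with drug, beside 9.73% and 9.69% of all genes.

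Gemcitabine moved members in both directions. The shares called were above those of all genes, a difference that was not tested. At 2 mM glutamine 8 of 37 rose (21.6%) and 10 fell (27%), beside 17.5% and 17.1% of all genes tested. At 40 mM 7 rose (18.9%) and 9 fell (24.3%), beside 14.1% and 16.2% (limma). The member medians were −0.038 and −0.006 on the log2 scale, and those of all genes −0.001 and −0.005. CD68, CTSC, CTSL, CTSZ, GLA and GUSB rose at both glutamine levels, 75.0% of the rises at 2 mM and 85.7% of those at 40 mM. CLN3, CTSB, CTSD, GALNS, MAN2B1, TPP1 and UNC93B1 fell at both, 70.0% and 77.8% of the falls. How often calls recurred over all genes was not computed. The drug comparisons at 2 and 40 mM share no library, and none of the members was called in opposite directions in them. Called changes reached 0.5 in size for 3 members at 2 mM and for 2 at 40 mM. The share of all genes with a called change of this size was not computed. With library totals as the scaling, 8 members were higher and 8 lower at 40 mM, beside 19.2% and 11.4% of all genes.

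**Figure D2:**
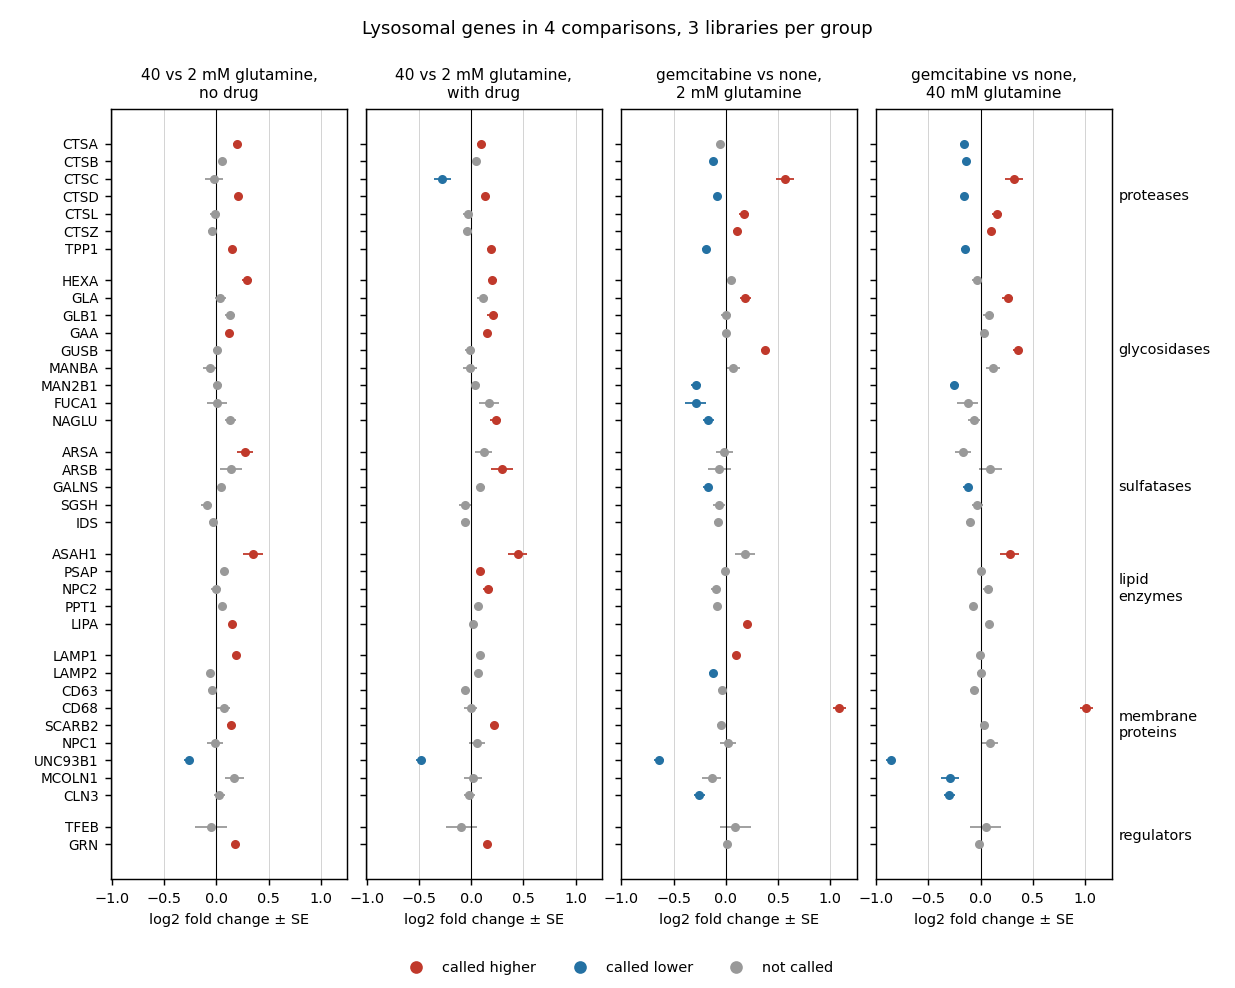
Log2 fold change (dot) and standard error (bar) of the 37 lysosomal genes in the 4 comparisons, 3 libraries per group, grouped by role, with called rises in red and called falls in blue. Most dots lie within 0.3 of 0; CD68 stands at 1.09 and 1.01 and UNC93B1 at −0.64 and −0.86 in the drug comparisons.

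The drug response differed detectably between glutamine levels for none of the 37 members. The interaction, which is the response at 40 mM minus that at 2 mM, was called higher for 0 and lower for 0 members, beside 0.727% and 1.47% of all genes (limma). At an unadjusted p under 0.05 there were 7 of 37 members, beside 1942 of all 12789 genes (limma). Voom weights on recovered reads likewise gave 0 adjusted and 7 unadjusted members in limma. Over all genes the shares called higher and lower were 1.09% and 0.758% with library totals and 0.907% and 0.751% with quantile normalization. UNC93B1 came nearest, with −0.22 ± 0.062 (95% interval −0.35 to −0.09, adjusted p = 0.0504). This value lay at the threshold: the adjusted p was 0.0449 with a filter of at least 5 RPM, 0.0471 with robust moderation and 0.0445 with replicate numbers as a block. It was 0.0398 without replicate 2 at 40 mM without drug and 0.0483 without replicate 3 at 40 mM with drug, and ran up to 0.141 under the remaining alternatives. The others were LIPA (−0.13, adjusted p = 0.1), LAMP2 (0.13, 0.174), LAMP1 (−0.11, 0.218), NPC2 (0.17, 0.227), CTSA (−0.11, 0.256) and CTSC (−0.25, 0.326).

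**Figure D3:**
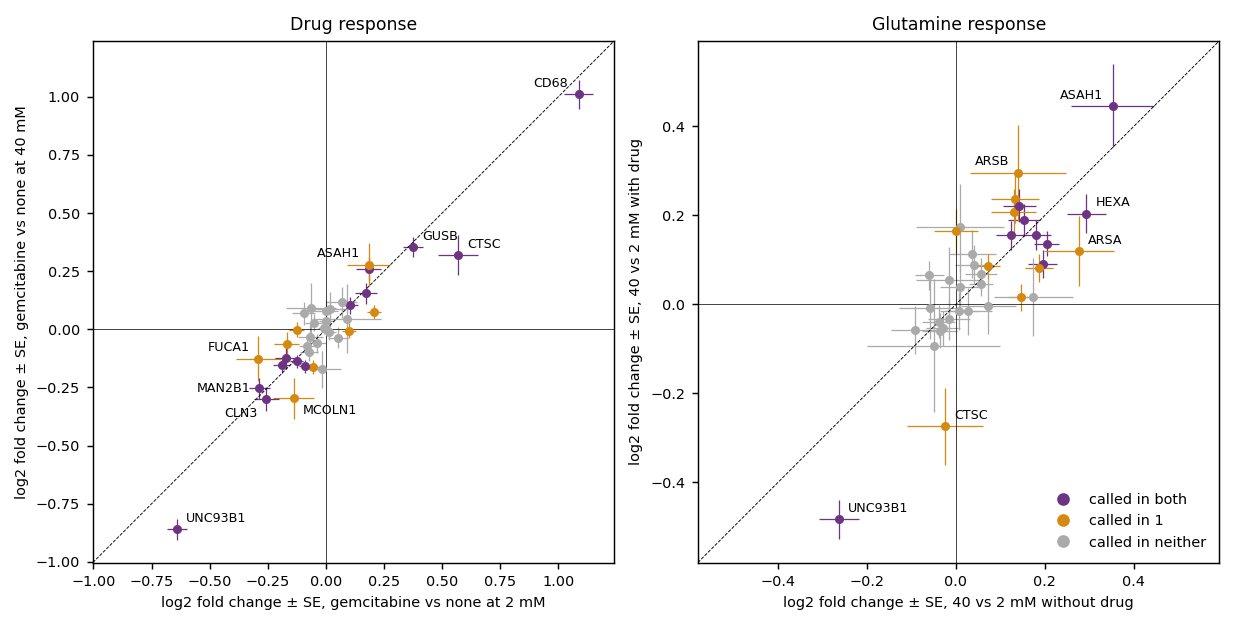
Log2 fold change with standard error of each lysosomal gene, gemcitabine at 2 mM against gemcitabine at 40 mM (left) and glutamine without drug against glutamine with drug (right), where the dashed line marks equal responses. CD68 and UNC93B1 lie farthest from the origin on the left, and ASAH1 and UNC93B1 on the right.

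Among the membrane proteins, CD68 and UNC93B1 had the largest drug responses of all members, in opposite directions. CD68 is a glycosylated protein of late endosomes and lysosomes that is in wide use as a macrophage marker. Its level was 20.3, 20.02 and 19.2 RPM at 2 mM without drug and 22.5, 20.9 and 19.4 at 40 mM without drug. With drug it was 42.5, 44.0 and 43.3 at 2 mM and 43.5, 42.9 and 43.0 at 40 mM. All 6 treated libraries lay above all 6 untreated ones, and the untreated groups overlap, as do the treated groups. CD68 rose with drug by 1.09 ± 0.062 at 2 mM (2.12-fold, limma adjusted p = 1.2e-15) and by 1.01 ± 0.062 at 40 mM (2.01-fold, 9.41e-15), while glutamine gave 0.07 and 0.00, neither called. Of the leukocyte markers, CD14 and LYZ summed to 0.408 to 1.12 RPM at 2 mM without and 0.918 to 1.17 with drug, and to 0.592 to 0.965 at 40 mM without and 0.44 to 1.14 with drug, which overlap, while PTPRC, CSF1R and CD163 were not among the listed genes. Of the exon bases of CD68, 95.3% also belong to AC016876.2, a transcript on the same strand, and how shared bases were counted by the authors is not stated in the labels.

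UNC93B1, the chaperone that takes nucleic acid-sensing Toll-like receptors from the endoplasmic reticulum to endosomes, fell in all 4 comparisons. It had 107, 107 and 104 RPM at 2 mM without drug and 92.8, 86.2 and 85.5 at 40 mM without drug. In treated cells it had 69.2, 67.4 and 66.2 at 2 mM and 48.9, 46.2 and 49.1 at 40 mM. The 4 groups did not overlap, so the order from highest to lowest was 2 mM, 40 mM, 2 mM with drug and 40 mM with drug. Drug gave −0.64 ± 0.044 at 2 mM (limma adjusted p = 9.58e-14) and −0.86 ± 0.044 at 40 mM (5.39e-17). Glutamine gave −0.26 ± 0.044 without drug (4.52e-05) and −0.48 ± 0.044 with drug (8.82e-10). UNC93B1 has 7 named pseudogene relatives, none of them listed in the table, so reads that match several copies make its level uncertain.

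Of its client receptors, TLR3 was the only one tested, at 0.507 to 1.62 RPM, and it was not called in any comparison. TLR7 was listed at 0.257 to 1.48 RPM, TLR9 at 0.0828 to 0.537 and TLR8 at 0 to 0.493. HSP90B1, a chaperone that folds these receptors among other proteins, had 843, 816 and 851 RPM at 40 mM with drug, 744, 768 and 748 at 40 mM without drug and 745, 730.4 and 745 at 2 mM with drug. The first group lay above the other two. It rose with drug at 40 mM by 0.15 ± 0.027 and with glutamine in treated cells by 0.18 ± 0.027. The remaining chaperone of the list, CNPY3, was not called (drug at 40 mM −0.16 ± 0.067).

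**Figure D4:**
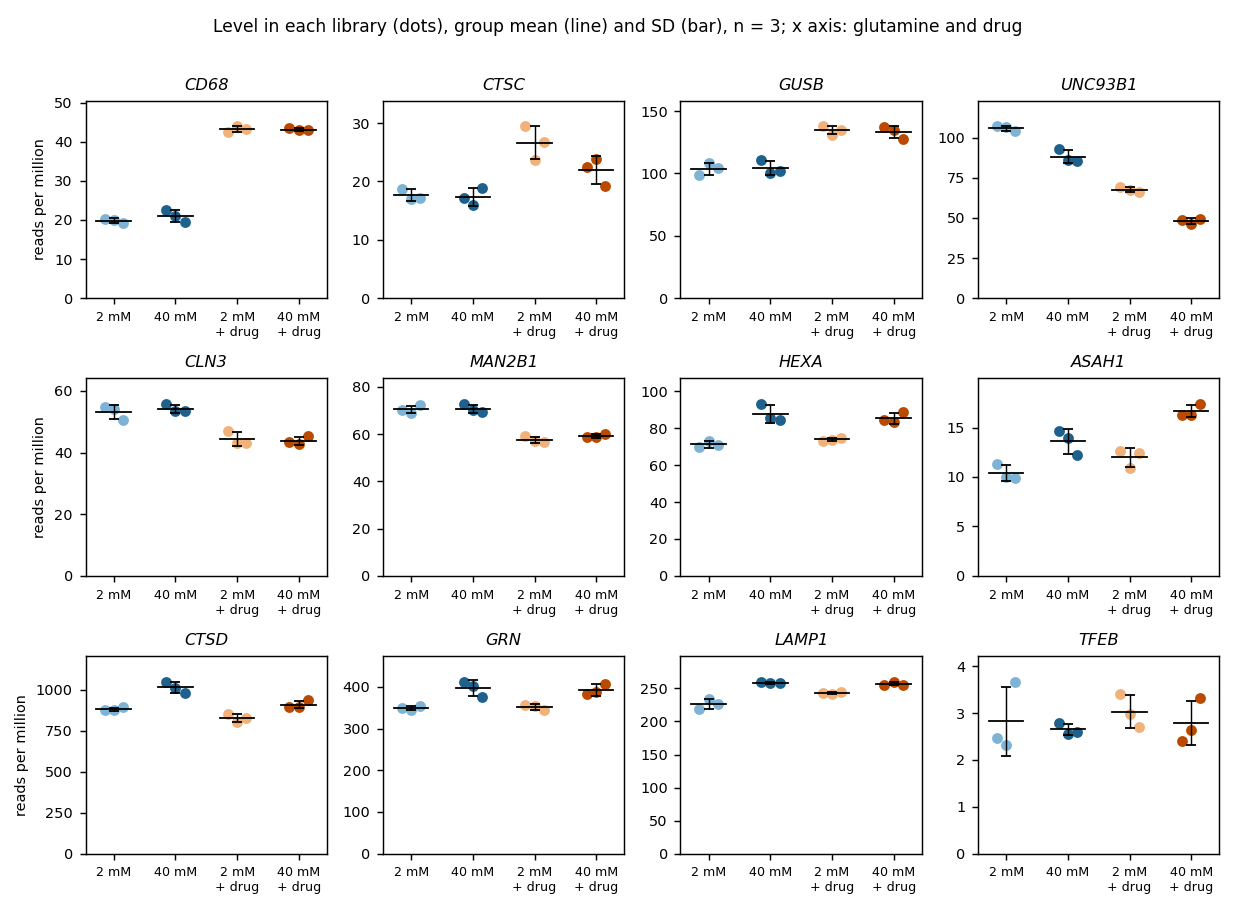
Level in RPM of 12 lysosomal genes in each of the 12 libraries (dots), with group mean (line) and SD (bar, n = 3), by glutamine and drug. CD68, CTSC and GUSB are higher in all treated libraries, UNC93B1 steps down across the 4 groups, and HEXA, ASAH1, CTSD and GRN are higher at 40 mM glutamine.

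CLN3, a lysosomal membrane protein lost in a juvenile form of neuronal storage disease, had 54.9, 54.2 and 50.5 RPM at 2 mM and 55.8, 53.5 and 53.5 at 40 mM. With drug it had 47.0, 43.2 and 43.0 at 2 mM and 43.4, 42.9 and 45.4 at 40 mM, below every untreated library. It fell by 0.26 ± 0.052 at 2 mM and by 0.30 ± 0.052 at 40 mM (limma adjusted p = 0.0002 and 2.57e-05) and glutamine changes were not called (0.03 and −0.02). Of its exon bases, 25.5% also belong to AC138894.1 on the same strand. MCOLN1, the calcium channel TRPML1, had 15.1, 14.3 and 17.3 RPM at 40 mM without drug and 12.3, 12.4 and 12.7 with drug. It fell there by 0.30 ± 0.088 (adjusted p = 0.00932), and this call ended without replicate 3 at 40 mM, its highest library (−0.22, 0.0831). At 2 mM it had 13.3, 13.8 and 13.9 without and 12.2, 12.1 and 12.7 with drug and was not called (−0.14 ± 0.088), although those libraries did not overlap.

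LAMP1 and LAMP2, the most abundant glycoproteins of the lysosomal membrane in most cells, differed in their calls. LAMP1 had 219.5, 234 and 227 RPM at 2 mM and 259.9, 257 and 258 at 40 mM without drug. Under drug the values were 242, 241 and 245 at 2 mM and 256, 259.9 and 256 at 40 mM. The untreated 2 mM libraries were lowest and did not overlap any other group. LAMP1 rose with glutamine by 0.19 ± 0.031 without drug (limma adjusted p = 3.59e-05) and had 0.08 with drug (0.0539). With drug it rose by 0.10 ± 0.031 at 2 mM (0.011), a call that ended without replicate 1 at 2 mM (0.08, 0.0902), and had −0.01 at 40 mM.

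LAMP2 had 199.7, 199.9 and 192 RPM at 2 mM and 178, 181 and 182 at 2 mM with drug, a fall of 0.13 ± 0.033 (limma adjusted p = 0.00334) with no overlap. At 40 mM it had 189.6, 196 and 182 without and 189, 187 and 191 with drug, which overlap (0.00). SCARB2, the receptor that carries glucocerebrosidase to lysosomes, had 124, 120.3 and 128 RPM at 2 mM and 133, 143 and 134 at 40 mM. In treated cells it had 122, 119 and 118 at 2 mM and 141, 136 and 142 at 40 mM. It was higher in all 6 libraries at 40 mM than in the 6 at 2 mM, by 0.14 ± 0.037 without and 0.22 ± 0.037 with drug (adjusted p = 0.00714 and 4.46e-05). The first of these calls ended without replicate 2 at 40 mM (0.11, 0.059). The tetraspanin CD63 and the cholesterol exporter NPC1 were called in no comparison, with values between −0.06 and 0.09.

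Each of the 7 proteases was called in at least 1 drug comparison, as were 45.1% of all genes tested. With glutamine 3 of the 7 rose in each comparison, beside 8.41% of all genes without and 8.62% with drug. CTSC, cathepsin C, which trims dipeptides and activates serine proteases, had 18.8, 16.9 and 17.1 RPM at 2 mM and 17.1, 15.9 and 18.9 at 40 mM without drug. It had 29.4, 23.7 and 26.8 at 2 mM and 22.5, 23.9 and 19.3 at 40 mM with drug. The treated libraries all lay above the untreated ones, with a rise of 0.57 ± 0.086 at 2 mM and 0.32 ± 0.086 at 40 mM (limma adjusted p = 2.94e-06 and 0.00426). Among treated cells it was lower at 40 mM by 0.27 ± 0.086 (adjusted p = 0.0196), but these groups overlap. That call ended with library totals as the scaling (−0.22, 0.0616), without treated replicate 1 or 3 at 2 mM (−0.20, 0.151 and −0.27, 0.0634) and without treated replicate 3 at 40 mM (−0.19, 0.156).

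CTSD, the most abundant member per kb, had 874, 874 and 893 RPM at 2 mM and 1049, 1011 and 984 at 40 mM without drug. Treated cells had 851, 806 and 827 at 2 mM and 898, 894 and 936 at 40 mM. The 40 mM libraries lay above the 2 mM ones within each drug condition, by 0.20 ± 0.028 and 0.14 ± 0.028 (limma adjusted p = 3.04e-06 and 0.000634). With drug CTSD was lower by 0.09 ± 0.028 at 2 mM and by 0.16 ± 0.028 at 40 mM (adjusted p = 0.014 and 4.81e-05). Both drug calls ended under quantile normalization (−0.06, adjusted p = 0.076, and −0.05, 0.179), and the first also without replicate 3 at 2 mM (−0.08, 0.0619) or replicate 2 at 2 mM with drug (−0.07, 0.102). Of its exon bases, 54.9% also belong to AC068580.4 on the same strand.

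TPP1, tripeptidyl peptidase, moved the same way as CTSD. It had 249.7, 238 and 241 RPM at 2 mM and 275, 280.0 and 256 at 40 mM without drug, and 216, 203 and 219.7 at 2 mM and 249, 247 and 232 at 40 mM with drug. It was higher with glutamine by 0.15 ± 0.036 and 0.19 ± 0.036 and lower with drug by 0.19 ± 0.036 and 0.15 ± 0.036, with no overlap in any of the 4 comparisons and limma adjusted p-values of at most 0.00282. CTSA, protective protein and carboxypeptidase, had 197, 199 and 201 RPM at 2 mM and 228, 235 and 221 at 40 mM without drug. Treated libraries held 194, 186 and 194 at 2 mM and 202, 202 and 206 at 40 mM. The untreated 40 mM libraries were the highest, with a rise of 0.20 ± 0.032 with glutamine (adjusted p = 4.27e-05) and a fall of 0.16 ± 0.032 with drug at 40 mM (0.000181). The rise of 0.09 with glutamine among treated cells ended without any 1 of the 6 libraries of that comparison (0.07 to 0.10, adjusted p = 0.0574 to 0.201).

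CTSB, cathepsin B, fell with drug while CTSL and CTSZ, the related cysteine proteases cathepsin L and Z, rose. CTSB had 397, 402 and 400.5 RPM at 2 mM and 366, 367 and 366 with drug, and 418, 417 and 413 at 40 mM and 377, 378 and 379 with drug. Its falls of 0.13 ± 0.027 and 0.14 ± 0.027 had limma adjusted p-values of 0.000353 and 0.000135, with no overlap. CTSL had 53.5, 53.2 and 53.0 RPM at 2 mM and 59.0, 60.1 and 61.2 with drug, and 53.0, 50.2 and 54.8 at 40 mM and 60.1, 57.3 and 58.8 with drug. Treated libraries were all above untreated ones, by 0.17 ± 0.047 and 0.15 ± 0.047, and CTSL has 6 named pseudogene relatives. CTSZ had 132, 136 and 136 RPM at 2 mM and 147, 144 and 143 with drug, and 136, 124 and 134 at 40 mM and 138, 141 and 143 with drug, a difference of 0.10 in each case.

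The CTSL call at 2 mM held under every alternative, while its call at 40 mM and both CTSZ calls did not. For CTSL at 40 mM the call ended without replicate 2 untreated (0.12, limma adjusted p = 0.0733) or replicate 1 treated (0.14, 0.0519). For CTSZ at 2 mM it ended without replicate 1 untreated (0.09, 0.11) and without replicates 1 or 2 treated (0.09, 0.101 and 0.11, 0.0624). At 40 mM the CTSZ call ended without replicate 2 untreated (0.06, 0.238), without replicates 2 or 3 treated (0.10, 0.0792 and 0.09, 0.106) and in a fit on these 6 libraries alone (0.10, 0.0562).

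Among the glycosidases, GUSB and GLA rose with drug, MAN2B1 fell, and HEXA and GAA rose with glutamine. GUSB, beta-glucuronidase, had 98.5, 108 and 104 RPM at 2 mM and 110.5, 100.4 and 102 at 40 mM. The treated groups had 138, 131 and 135 at 2 mM and 137, 135 and 128 at 40 mM, above every untreated library. It rose by 0.38 ± 0.042 and 0.35 ± 0.042 (limma adjusted p = 9.42e-09 and 3.14e-08). It has 19 named pseudogene relatives, 8 of them in the table, so its level is uncertain. GLA, the alpha-galactosidase lost in Fabry disease, had 44.5, 47.4 and 47.3 RPM at 2 mM and 49.3, 54.3 and 55.2 with drug. At 40 mM it had 48.0, 49.0 and 45.8 without and 58.4, 59.1 and 54.3 with drug. Its rises were 0.18 ± 0.053 and 0.26 ± 0.053 without overlap, and the first ended without replicate 3 at 2 mM with drug (0.15, adjusted p = 0.0529).

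MAN2B1, the lysosomal alpha-mannosidase, had 70.0, 69.1 and 72.1 RPM at 2 mM and 72.7, 70.3 and 69.4 at 40 mM. With gemcitabine the values were 59.0, 56.9 and 56.8 at 2 mM and 58.9, 58.7 and 60.0 at 40 mM, below all untreated libraries. Its falls of 0.29 ± 0.044 and 0.25 ± 0.044 had limma adjusted p-values of 3.37e-06 and 2.3e-05, and glutamine gave 0.01 and 0.04. Of the MAN2B1 exon bases, 22.0% also belong to AC010422.3 and 13.7% to AC010422.5, both on the same strand. FUCA1, the alpha-fucosidase, had 14.5, 15.1 and 14.4 RPM at 2 mM and 11.1, 13.1 and 11.3 with drug, and 14.4, 15.2 and 14.6 at 40 mM and 11.2, 13.5 and 15.9 with drug. The fall of 0.29 ± 0.098 at 2 mM (adjusted p = 0.0201) ended without replicate 2 untreated (−0.27, 0.0606) or without replicates 1 or 3 treated (−0.25, 0.0837 and −0.26, 0.0805).

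HEXA, the alpha subunit of beta-hexosaminidase lost in Tay-Sachs disease, had 69.6, 73.0 and 71.0 RPM at 2 mM and 93.0, 85.4 and 84.2 at 40 mM without drug. Gemcitabine-treated cells had 73.2, 73.8 and 74.8 at 2 mM and 84.4, 83.1 and 88.5 at 40 mM. All 6 libraries at 40 mM lay above all 6 at 2 mM, by 0.29 ± 0.044 without drug and 0.20 ± 0.044 with drug (limma adjusted p = 8.68e-06 and 0.000777), and drug changes were not called (0.05 and −0.04). GAA, the acid glucosidase of glycogen, ran from 239 to 248 RPM at 2 mM and from 263 to 270.3 at 40 mM without drug. It rose by 0.12 ± 0.032 without and 0.16 ± 0.032 with drug.

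GLB1, the beta-galactosidase behind the senescence stain, had 54.2, 53.8 and 53.3 RPM at 2 mM with drug and 64.4, 63.6 and 58.9 at 40 mM with drug, a rise of 0.21 ± 0.051 (limma adjusted p = 0.00332). Without drug it had 58.0, 52.1 and 51.5 at 2 mM and 60.0, 56.0 and 60.9 at 40 mM, which overlap (0.13 ± 0.051, adjusted p = 0.0754). NAGLU, which removes N-acetylglucosamine from heparan sulfate, had 43.3, 45.1 and 40.8 RPM at 2 mM and 46.5, 46.6 and 48.9 at 40 mM without drug. With drug it had 37.2, 40.0 and 37.4 at 2 mM and 43.4, 45.2 and 47.0 at 40 mM, a rise with glutamine of 0.24 ± 0.054 (adjusted p = 0.0017). Its fall with drug at 2 mM of 0.17 ± 0.054 ended without replicate 2 untreated (−0.14, 0.0844) or without replicates 1 or 3 treated (−0.15, 0.0642 and −0.15, 0.0619). MANBA, the beta-mannosidase, was called in no comparison (−0.06 to 0.12).

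Of the 5 sulfatases, GALNS fell with drug, while ARSA and ARSB each rose in 1 glutamine comparison. GALNS, which acts on keratan sulfate, had 90.2, 87.4 and 84.9 RPM at 2 mM and 79.7, 77.0 and 75.9 with drug, a fall of 0.17 ± 0.044 (limma adjusted p = 0.00254) without overlap. At 40 mM it had 86.7, 92.7 and 91.0 without and 82.3, 77.8 and 87.7 with drug, which overlap. That fall of 0.13 ± 0.044 ended with library totals (−0.08, 0.157), without replicate 2 or 3 untreated (−0.11, 0.11 and −0.12, 0.0835) and without replicate 1 or 2 treated (−0.12, 0.0684 and −0.08, 0.216).

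ARSB, which acts on dermatan sulfate and sits among the members at low level, had 8.07, 9.57 and 8.30 RPM at 2 mM and 10.4, 12.1 and 10.03 at 40 mM with drug. It rose by 0.30 ± 0.108 (limma adjusted p = 0.0456). The call ended under quantile normalization (0.27, 0.0774), with no filter (0.30, 0.0603), without replicates 1 or 3 at 2 mM (0.25, 0.159 and 0.27, 0.134) and without replicates 1 or 2 at 40 mM (0.32, 0.0677 and 0.22, 0.215). Without drug ARSB had 8.18, 9.72 and 9.34 at 2 mM and 9.30, 9.53 and 11.6 at 40 mM, which overlap (0.14 ± 0.108). ARSA, which acts on sulfatide, had 24.8, 22.0 and 30.01 RPM at 2 mM and 32.8, 30.5 and 29.7 at 40 mM without drug. These groups overlap, and its rise of 0.28 ± 0.079 (adjusted p = 0.013) ended without replicate 2 at 2 mM (0.18, 0.142) or replicate 1 at 40 mM (0.24, 0.062). SGSH and IDS, which act on heparan sulfate, were called in no comparison, with values between −0.10 and −0.03.

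Of the lipid-degrading enzymes and their helpers, ASAH1 had the largest rises with glutamine of all members. ASAH1, the acid ceramidase that splits ceramide, had 11.3, 9.99 and 9.93 RPM at 2 mM and 14.6, 13.9 and 12.2 at 40 mM without drug. With drug it had 12.7, 10.9 and 12.4 at 2 mM and 16.3, 16.3 and 17.4 at 40 mM. The treated 40 mM libraries were the highest, and within each drug condition 40 mM lay above 2 mM. It rose by 0.35 ± 0.093 without drug and 0.45 ± 0.093 with drug (limma adjusted p = 0.00712 and 0.000597). With gemcitabine it rose by 0.28 ± 0.093 at 40 mM (0.0212), a call that ended without replicate 3 untreated (0.21, 0.131) or replicate 3 treated (0.25, 0.0795), and gave 0.18 at 2 mM (0.124).

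LIPA had 525, 495 and 515 RPM at 2 mM without drug, the lowest group, and 568, 568 and 562 at 40 mM. With drug it had 616, 572 and 584 at 2 mM and 597, 581 and 612 at 40 mM, which overlap each other. It rose with glutamine by 0.15 ± 0.03 without drug (limma adjusted p = 0.000626) and had 0.02 with drug. With gemcitabine it rose by 0.21 ± 0.03 at 2 mM (1.62e-06) and gave 0.08 at 40 mM (0.0564). NPC2, which hands cholesterol to NPC1, had 49.5, 48.6 and 49.9 RPM at 2 mM with drug and 56.0, 53.6 and 56.6 at 40 mM with drug. This rise of 0.17 ± 0.049 (adjusted p = 0.0129) ended without replicate 2 at 2 mM (0.15, 0.0537) or replicate 3 at 40 mM (0.15, 0.0536). Without drug NPC2 had 52.3, 51.7 and 54.3 at 2 mM and 54.9, 50.3 and 53.2 at 40 mM, which overlap (0.00).

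PSAP was higher at 40 mM in treated cells, with 1057, 1030 and 1047 RPM at 2 mM and 1099, 1069 and 1159 at 40 mM, a difference of 0.09 ± 0.028 (limma adjusted p = 0.0242). The call ended without replicate 2 or 3 at 2 mM (0.08, 0.107 and 0.09, 0.0597) and without replicate 3 at 40 mM (0.05, 0.199). PPT1, the thioesterase that removes palmitate from proteins, was called in no comparison (−0.08 to 0.07). Of its exon bases, 27.3% also belong to CAP1 on the opposite strand, a gene listed in the table.

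Of the 2 regulators, GRN rose with glutamine and TFEB was called in no comparison. GRN, whose product is cut to granulins in the lysosome, had 349.6, 344 and 354 RPM at 2 mM and 412, 402 and 375 at 40 mM without drug. With drug it had 358, 354 and 344 at 2 mM and 382, 388 and 408 at 40 mM. The 40 mM libraries lay above the 2 mM ones in both conditions, by 0.18 ± 0.033 and 0.16 ± 0.033 (limma adjusted p = 0.000137 and 0.000632), and drug gave 0.01 and −0.01. TFEB, the transcription factor of lysosome biogenesis, had 2.47, 2.33 and 3.67 RPM at 2 mM and 2.79, 2.56 and 2.60 at 40 mM without drug. With drug it had 3.40, 2.97 and 2.71 at 2 mM and 2.40, 2.65 and 3.32 at 40 mM. All 4 groups overlap, and a change in its RNA of the size seen for most members was not detectable at this depth (drug at 2 mM 0.09, 95% interval −0.22 to 0.39). RNA level gives no measure of where the TFEB protein is in the cell.

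Calls on the 6 members with the element TCACGTGA went in opposite directions only with drug at 2 mM. There LAMP1 rose (0.10) and CLN3 and GALNS fell (−0.26 and −0.17), while MCOLN1, CTSA and GAA were not called (−0.14, −0.06 and 0.002). With glutamine in treated cells, CTSA and GAA rose (0.09 and 0.16). GALNS, LAMP1, MCOLN1 and CLN3 had 0.09, 0.08, 0.02 and −0.02 there, none called. With glutamine and no drug, CTSA, GAA and LAMP1 rose (0.20, 0.12 and 0.19), while MCOLN1 had 0.17, GALNS 0.04 and CLN3 0.03, none called. With drug at 40 mM, CLN3, MCOLN1, CTSA and GALNS fell (−0.30, −0.30, −0.16 and −0.13) and GAA and LAMP1 had 0.03 and −0.01. Over all genes tested, 17.5% were called higher and 17.1% lower with drug at 2 mM, and 14.1% and 16.2% at 40 mM. For glutamine the shares were 8.41% and 9.12% without drug and 8.62% and 13.0% with drug. Whether these 6 members differ from the searched members without the element was not tested. Binding of a factor to these sites was not measured.

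Other lysosomal enzymes and cofactors that were not members were also called higher more often than lower with glutamine. Of 27 tested, 10 rose and 2 fell without drug (37.0% and 7.41%, median 0.11), beside 8.41% and 9.12% of all genes. Among treated cells 7 rose and 1 fell (25.9% and 3.7%), beside 8.62% and 13.0%. SIAE, a sialic acid esterase, rose by 0.39 ± 0.053 and 0.42 ± 0.053. GALC, the galactocerebrosidase, rose by 0.31 ± 0.079 and 0.32 ± 0.079, and IDUA, the alpha-iduronidase, rose by 0.46 ± 0.109 and 0.40 ± 0.109. With drug 7 rose and 5 fell at each glutamine level (25.9% and 18.5%), beside 17.5% and 17.1% of all genes at 2 mM and 14.1% and 16.2% at 40 mM. The protease CTSV rose by 0.49 ± 0.064 and 0.57 ± 0.064, while DNASE2, which digests DNA in lysosomes, fell by 0.43 ± 0.045 and 0.32 ± 0.045 and GM2A, the activator protein for HEXA, by 0.35 ± 0.045 and 0.40 ± 0.045.

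Lysosomal membrane proteins and transporters outside the list fell with drug where they were called. Of 23 tested, 0 rose and 7 fell (30.4%) at each glutamine level, where 17.1% of all genes fell at 2 mM and 16.2% at 40 mM and 17.5% and 14.1% rose. Glutamine gave 3 rises (13.0%) and 0 falls without drug, beside 8.41% and 9.12% of all genes, and 5 rises (21.7%) and 1 fall (4.35%) with it, beside 8.62% and 13.0%. For the drug, 7 of the 23 at 2 mM and 9 at 40 mM had an unadjusted p under 0.05 (limma). Of all 12789 genes, 5581 and 5072 had such a p. Voom weights gave 0 rises at each level with 6 and 8 falls. With glutamine and no drug 11 had such a p, beside 3902 of all 12789 genes, and voom gave 3 rises and 0 falls. SIDT2 fell by 0.36 ± 0.065 and 0.40 ± 0.065, and ABCA2, a lipid transporter, by 0.23 ± 0.04 and 0.15 ± 0.04. LAPTM4A rose with glutamine by 0.13 ± 0.035 and 0.19 ± 0.035.

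The V-ATPase, the proton pump that acidifies lysosomes, had 3 of 18 subunit genes called higher (16.7%) and 0 lower with glutamine without drug, beside 8.41% and 9.12% of all genes. Among treated cells 4 rose (22.2%) and 1 fell (5.56%), beside 8.62% and 13.0%. Voom weights gave the same counts, 3 and 0, without drug. There 5 of the 18 had an unadjusted p under 0.05 (limma), beside 3902 of all 12789 genes. Drug gave 5 rises (27.8%) and 1 fall (5.56%) at 2 mM, beside 17.5% and 17.1% of all genes, and 6 (33.3%) and 2 (11.1%) at 40 mM, beside 14.1% and 16.2%. ATP6V0D1 rose with glutamine by 0.21 ± 0.039 without drug and with drug at 2 mM by 0.26 ± 0.039. TCIRG1, an isoform of the pump's membrane subunit, fell with drug by 0.23 ± 0.055 and 0.28 ± 0.055.

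Among 11 genes that tag enzymes and sort them to lysosomes, SORT1, the sorting receptor sortilin, rose in all 4 comparisons. It had 32.1, 33.7 and 29.2 RPM at 2 mM, 36.4, 36.7 and 41.4 at 40 mM, 39.3, 43.6 and 41.3 at 2 mM with drug and 55.8, 55.8 and 56.3 at 40 mM with drug. It rose with glutamine by 0.26 ± 0.06 and 0.43 ± 0.06 and with drug by 0.38 ± 0.06 and 0.54 ± 0.06. IGF2R, the larger mannose 6-phosphate receptor, fell with drug by 0.31 ± 0.039 and 0.18 ± 0.039. The list counted 2 rises and 2 falls with glutamine without drug, and 2 and 0 with it, where voom weights also gave 2 and 0. With glutamine in treated cells 3 of the 11 had an unadjusted p under 0.05 (limma), beside 4244 of all 12789 genes. Drug gave 3 rises (27.3%) and 2 falls (18.2%) at 2 mM, beside 17.5% and 17.1% of all genes, and 1 (9.09%) and 2 (18.2%) at 40 mM, beside 14.1% and 16.2%. In the glutamine comparisons all genes stood at 8.41% and 9.12% without and 8.62% and 13.0% with drug, beside 18.2% for each 2 of the 11.

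Of 18 tested TFEB-related factors and autophagy genes, 0 rose and 3 fell (16.7%) with glutamine without drug, beside 8.41% and 9.12% of all genes, and 0 and 1 (5.56%) with drug, beside 8.62% and 13.0%. Gemcitabine gave 0 rises and 6 falls (33.3%) at 2 mM, beside 17.5% and 17.1%, and 1 (5.56%) and 5 (27.8%) at 40 mM, beside 14.1% and 16.2%. At an unadjusted p under 0.05 there were 5, 5, 7 and 8 of the 18 genes in these comparisons (limma). Of all 12789 genes there were 3902, 4244, 5581 and 5072. Voom weights gave 0 rises in the first 3 comparisons and 1 in the last. TFE3, a factor of the TFEB family, fell with glutamine by 0.11 ± 0.037 without and 0.20 ± 0.037 with drug. GABARAP, a protein of the autophagosome membrane, fell with drug by 0.24 ± 0.042 and 0.29 ± 0.042, and the autophagy receptor NBR1 by 0.19 ± 0.034 and 0.14 ± 0.034.

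**Figure D5:**
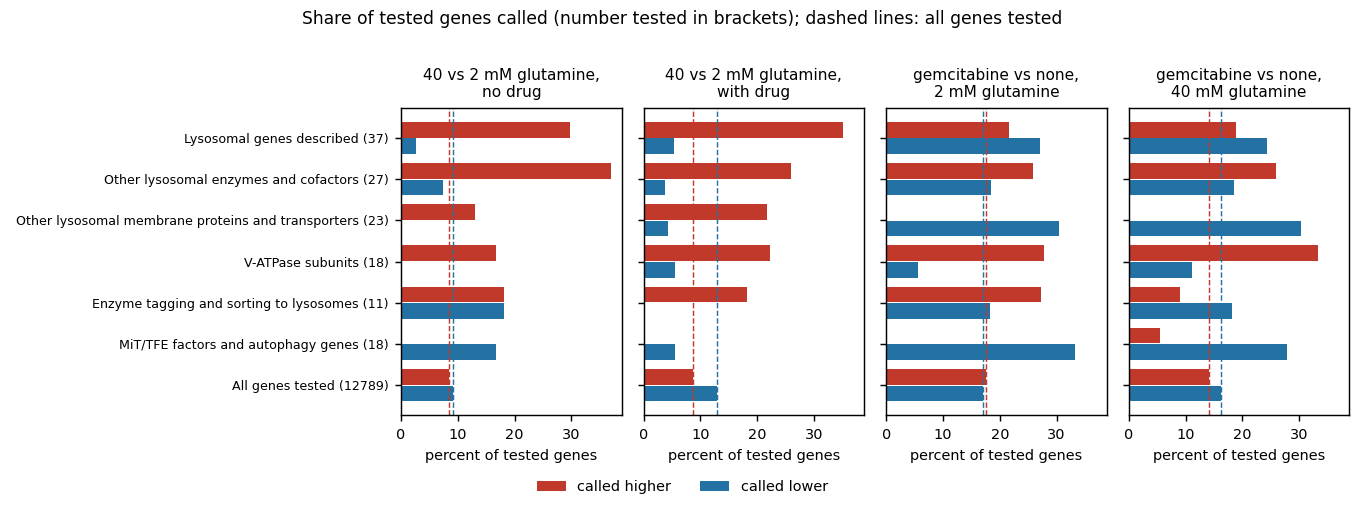
Share of tested genes called higher (red) and lower (blue) in the 4 comparisons for the 37 lysosomal genes, the other lysosomal lists and all 12789 genes tested, whose shares are the dashed lines. In the glutamine comparisons the members are at 29.7% and 35.1% higher, beside 8.41% and 8.62% of all genes, and in the drug comparisons both directions are filled.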

How the data were processed

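Total RNA of 12 MIA PaCa-2 libraries was measured, 3 in each of 4 groups given by the sample titles. The authors deposited 1 table of log2 values, with the library names in its column headers, per the file headers. From the values, each is log2 of RPM plus a pseudocount of 1 with a scaling between libraries. The method of that scaling, the aligner, the counting program, its strand setting and the genome build were not given in the sources used here. In each library 100% of genes gave whole reads within 0.05 read, so reads could be recovered; they sum to 21723094 to 32811746. Each library counted once, as the series describes biological triplicates. Pairs of libraries within a group had a chi-square per degree of freedom of 2.38 to 5.64. This scatter cannot show whether the libraries came from separate cultures.

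The deposited log2 values of 12789 genes (at least 1 RPM in at least 3 libraries; 2301 untested) were fitted with limma 3.58.1 (R 4.3.3) as 4 group means over 12 libraries, with a mean-variance trend, two-sided tests and p-values adjusted by Benjamini-Hochberg across the 12789 genes (threshold 0.05). Fold changes are on the log2(RPM + 1) scale, which understates changes of low genes, and are given ± SE. The 5 comparisons were glutamine without and with drug, drug at 2 and 40 mM, and their interaction. With 3 libraries a group, an exact permutation test could not go below p = 0.1, so none was used. The fit was also run on simulated reads with known changes and the same spread setting for all genes, which was not matched to these libraries.

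The members and lists were chosen with earlier results of these data known. Members given by library are the up to 8 largest called rises and falls per comparison whose groups do not overlap, plus CD68, UNC93B1, LAMP1, LAMP2 and TFEB. PSAP, GALNS at 40 mM and ARSA were added after their values were seen. Of other lists, up to 4 genes with the smallest adjusted p per comparison could be named, and 1 of these is not reported here. TLR genes and CNPY3 are given as the partners of UNC93B1, chosen after their values were seen. Alternatives were 2 other scalings (quantile, library totals), pseudocounts of 0.1 and 4, no filter and a filter of 5 RPM, fits on 2 groups, robust moderation, voom weights on recovered reads, the replicate numbers as a block and each library left out. Count models were planned for files of counts; the deposited unit is log2, so limma was used throughout. Promoter windows are from RefSeq (GRCh38.p14), and exon lengths and overlaps from GENCODE 29. Same-strand overlaps also included IDS (17.0% of exon bases), NAGLU (14.9%) and TPP1 (14.2%).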

Additional observations from a re-analysis of the deposited data

Results flagged for a closer look

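A test of the difference between drug responses, the interaction in limma, was past the threshold for 2 genes reported here that are outside the member list. LGMN, the asparaginyl protease legumain, had a drug response of −0.05 at 2 mM and 0.17 at 40 mM glutamine, a difference of 0.22 ± 0.058 (adjusted p = 0.039). It had 91.5, 91.8 and 86.9 RPM at 2 mM and 78.7, 82.7 and 84.6 at 40 mM without drug, and 88.9, 86.7 and 85.4 at 2 mM and 94.7, 89.8 and 92.1 at 40 mM with drug. The keratin KRT8 had 0.46 and 0.32, a difference of −0.14 ± 0.036 (adjusted p = 0.0273).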

How the results depend on the processing

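Of 61 calls on members, 42 held under every alternative and 19 were lost under at least 1. None was reversed. All 61 held with either pseudocount, with at least 5 RPM, with robust moderation and with voom weights on recovered reads. Quantile normalization lost 3, library totals 2, no filter 1 and fits on 2 groups 1, and leaving out 1 library lost between 1 and 7. The members lower with glutamine in treated cells went from 2 to 1 under library totals, and ranged from 1 to 2 when single libraries were left out. The members with a lower interaction went from 0 to 1 (UNC93B1) with the replicate block, with at least 5 RPM and with robust moderation, and ranged from 0 to 1 when single libraries were left out. The fit on 2 groups gives no interaction. All other member counts stayed within 1.5 times.

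The numbers 1 to 3 showed no detectable pairing of the samples. Over 18 same-numbered pairs, the correlation of deviations from the group means ran from −0.077 to 0.048. How the cultures were set up cannot be read from this. The replicate block kept all 61 calls and changed no other call count beyond adding UNC93B1 to the interaction and taking the rises with drug at 40 mM from 7 to 8. Library totals moved the median of all genes by at most 0.05 on the log2 scale, and took the share of higher calls among all calls from 48.0% to 61.2% (glutamine without drug), 39.9% to 68.2% (with drug), 46.6% to 62.9% (drug at 40 mM) and 33.1% to 58.9% (interaction). Quantile normalization gave 50.1% for glutamine with drug and 54.7% for the interaction. The standard error of a member had a median of 0.044 on the log2 scale and reached 0.15 for TFEB, so changes near these sizes were not detectable with 3 libraries a group.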
